A study of Rattus norvegicus with 18 samples.

Results

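Frontal lobes of young female rats whose dams had received the lower dose of BDE-47, 0.002 mg/kg body weight per injection, were compared with frontal lobes of rats whose dams had received vehicle alone. The comparison took the 3 arrays that the labels assign to each of these groups, 6 of the 18 arrays in the data set, and ran over all 22523 probes of an Illumina rat expression array. The other arrays hold frontal lobes at 0.2 mg/kg and total brains at the same doses. All animals were Wistar pups, a single female being taken from each litter, and each group came from 3 dams that were injected in the tail with the compound in ethanol, Cremophor EL and water or with that vehicle only, so pups of every group were exposed to the vehicle. According to the sample descriptions, the frontal lobe dams received 6 injections from late gestation through lactation and the pups were killed at postnatal day 41, whereas the total brains came from pups of 3-injection dams at postnatal day 10. The text for the series as a whole gives postnatal day 10 for both tissues. The dose is that of the dam, not of the pup, and with 1 pup a litter the spread between pups and the spread between litters cannot be told apart.

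BDE-47 is a tetrabrominated diphenyl ether, a component of flame retardant mixtures that is fat-soluble, persists in tissue and reaches offspring through the placenta and the milk. In rodents such ethers are known for lowering circulating thyroid hormone, for activating the liver's xenobiotic receptors and for acting on ryanodine receptors, the calcium release channels of the endoplasmic reticulum. Thyroid hormone acts in the developing cortex through the nuclear receptors encoded by Thra and Thrb, which drive myelination and neuronal maturation genes, among them Klf9, Hr and Mbp. The comparison addresses whether perinatal exposure to a low dose left a difference in transcript levels in the frontal lobe.

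Values, deposited on a scale that resembles log2, reached 15.65 on the 6 arrays and had array medians between 7.83 and 7.84. The mean was under 8, close to the floor of the scale, for 58.5% of the probes. Of 4 cortical markers examined, 2 stood clear of that floor, Slc17a7, the vesicular glutamate transporter of cortical neurons, at 10.47 on vehicle and 10.59 on exposed arrays and Neurod6, a transcription factor of cortical projection neurons, at 11.67 and 11.64. The others lay near it, Emx1, a transcription factor of the developing cortex, at 8.19 in both groups and Rorb, a nuclear receptor of cortical neurons, at 8.17 and 8.32. The cerebellar and hindbrain markers Pcp2, Gabra6, En2, Hoxb5 and Hoxb2 had group means between 7.58 and 7.68, and the choroid plexus markers Folr1, Kl and Kcne2 between 7.65 and 7.71. Aqp1, a water channel of choroid plexus, was at 8.09 and 7.99, and Ttr, which liver also makes, at 8.93 and 8.08. Pearson correlations across probes were 0.989 to 0.992 among vehicle arrays, 0.995 to 0.997 among exposed arrays and 0.989 to 0.996 between the groups.

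The vehicle group was the more spread of the pair. In the brighter 50% of the probes the median standard deviation was 0.101 log2 units in vehicle, 0.065 at 0.002 mg/kg and 0.098 at 0.2 mg/kg, and the vehicle value was above the 0.002 mg/kg value for 70.3% of these probes. Leaving out vehicle replicate 3 took the vehicle median to 0.067, whereas leaving out 1 exposed array gave 0.049 to 0.061.

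Vehicle replicate 1 stood apart in transcripts of liver. Alb, which encodes serum albumin, was at 13.99, 10.65 and 10.25 in vehicle replicates 1 to 3 and at 9.94, 10.65 and 9.22 in the exposed replicates. Ahsg, which encodes the liver plasma protein fetuin-A, was at 12.64, 9.26 and 8.57 in vehicle and at 8.41, 9.79 and 8.21 after exposure. Of a list of 42 liver genes, chosen after these values had been seen, 36 were measured, and 34 of them had their highest frontal lobe value in vehicle replicate 1. The mean of the list, taken as each gene's level minus its mean over the 6 arrays, was 1.62 in vehicle replicate 1, between -0.37 and -0.20 in the other vehicle arrays and between -0.51 and -0.08 in the exposed arrays. Over all probes, 52 in vehicle replicate 1 were above every other frontal lobe array by more than 1, whereas the other 5 arrays compared had 0 such probes each, except exposed replicate 3 with 1. Exposed replicate 2 showed a smaller departure of the same kind, with 26 of the 36 liver genes above vehicle replicates 2 and 3. How the liver transcripts came into these samples was not tested.

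**Figure D1:**
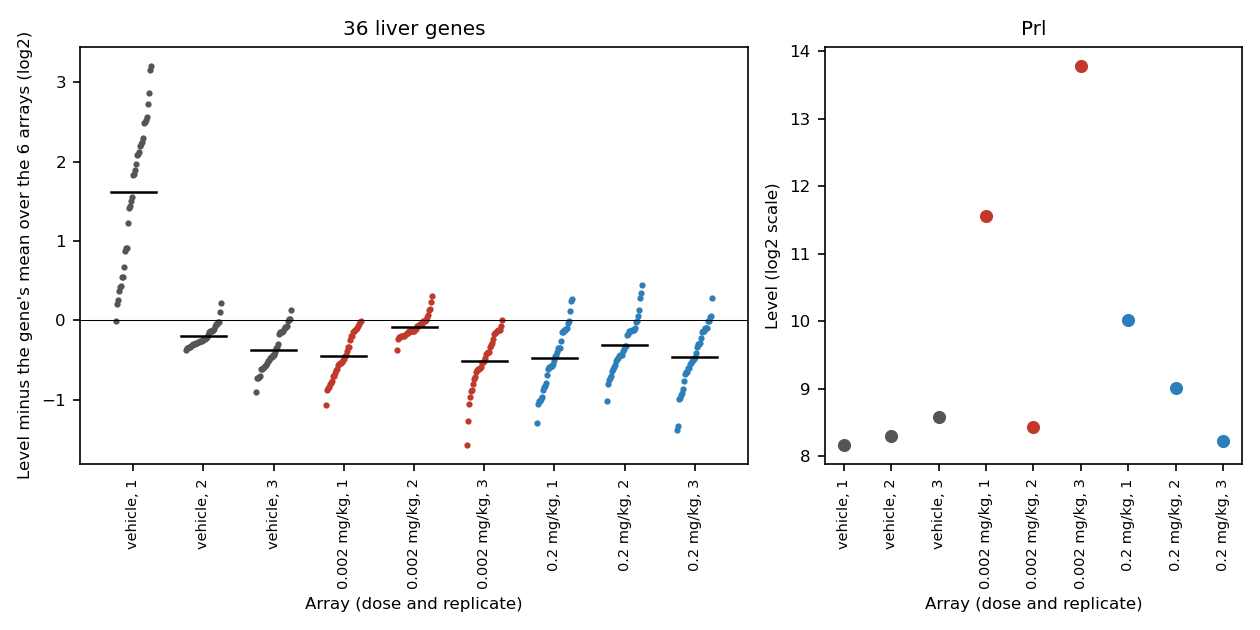
Liver genes and Prl in the 9 frontal lobe arrays. Left, each point is 1 of 36 liver genes, as its level minus the gene's mean over the 6 vehicle and 0.002 mg/kg arrays (log2), and the bar is the mean of the points, 1.62 in vehicle replicate 1. Right, the Prl level (log2 scale) in each array, high in replicates 1 and 3 of the 0.002 mg/kg group at 11.56 and 13.78.

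No transcript differed between the exposed and the vehicle frontal lobes by the test applied. With limma's moderated test on the 9 frontal lobe arrays and Benjamini-Hochberg adjustment, 0 of 22523 probes had an adjusted p under 0.05 (0.0% of the probes), and the smallest adjusted p was 0.910, a value that 3146 probes shared. An unadjusted p under 0.05 was reached by 1151 probes, 5.11% of all, of which 677 were higher in the exposed group (3.01%) and 474 lower (2.1%). All 3 exposed values lay beyond all 3 vehicle values for 2876 probes (12.8%), above them for 1593 (7.07%) and below them for 1283 (5.7%). The median difference over all probes was 0.00, with 11367 probes above 0 and 11156 below.

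The size of difference that these arrays leave room for was small for most probes. The 95% confidence interval of the log2 difference, taken probe by probe, had a median width of 0.095 to each side over all probes and 0.180 in the brighter 50%. It lay within 1 log2 unit of 0, a 2-fold difference, for 99.2% of all probes and for 98.5% of the brighter ones, and within 0.5 for 93.9% and 88.1%. These intervals are not adjusted for the number of probes, and near the floor a difference may be compressed by the scale.

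The measured difference exceeded 0.5 for 95 probes, 36 higher and 59 lower in the exposed group, and 1 for 15 probes, 6 higher and 9 lower. All 9 of the lower probes past 1, and 41 of the 59 past 0.5, were among those that vehicle replicate 1 held above every other frontal lobe array. Without vehicle replicate 1, 22 probes were lower by more than 0.5 and 47 higher, and 3 were lower by more than 1. The 8 named probes lower by more than 1 belonged to plasma protein and lipid-binding genes of liver, namely Alb with 2 probes, Ahsg, Ambp, Gc, Fgg, Fabp1 and Apoh. For Alb the difference of -1.70, with a 95% interval of -3.87 to 0.47, became -0.52 without that array.

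**Figure D2:**
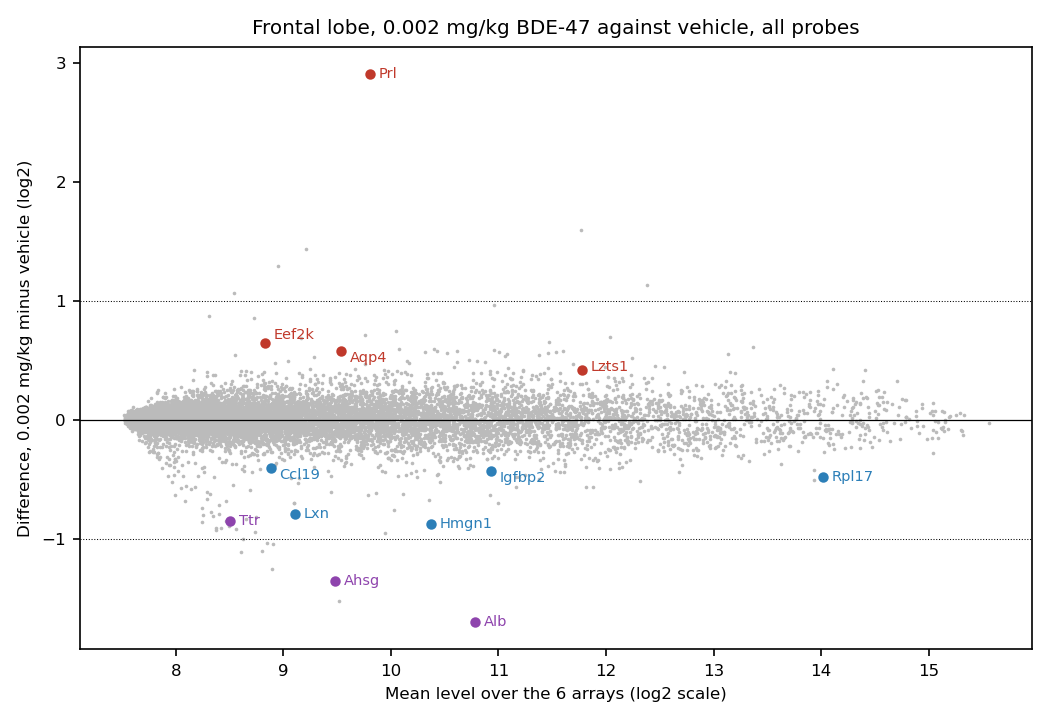
Log2 difference between the 0.002 mg/kg and the vehicle group against the mean level over the 6 arrays (log2 scale), 1 point per probe for 22523 probes. Dotted lines mark a difference of 1 either way, which 15 probes passed. Labelled genes are Prl at 2.90, the liver genes Alb and Ahsg with Ttr, and genes named in the text.

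The largest difference in the comparison was in Prl, which encodes the pituitary hormone prolactin. Its level was 8.17, 8.30 and 8.59 in the vehicle arrays, 11.56, 8.43 and 13.78 in the exposed arrays and 10.01, 9.01 and 8.22 at 0.2 mg/kg. Replicates 1 and 3 of the exposed group were high and replicate 2 lay within the vehicle range. The difference was 2.90 with a 95% interval of 0.19 to 5.62 and an adjusted p of 0.910 by limma. A list of 18 pituitary genes, also chosen after the values had been seen, had 15 measured members, and its mean over the 14 other than Prl was between -0.05 and -0.04 in vehicle and 0.01, 0.02 and 0.09 after exposure. Most of the other members lay near the floor of the scale. Cga, the common subunit of the glycoprotein hormones, was at 7.75, 7.72 and 7.71 in vehicle and at 7.68, 7.69 and 7.70 after exposure, the groups not overlapping downward. Tshb, the specific subunit of thyrotropin, was at 7.71, 7.74 and 7.72 in vehicle and at 7.92, 7.72 and 7.86 after exposure. Pou1f1, the transcription factor of the prolactin, growth hormone and thyrotropin cells, was at 7.71, 7.61 and 7.66 in vehicle and at 7.69, 7.72 and 7.78 after exposure. Pomc, the precursor of corticotropin, which neurons also express, was at 8.41 to 8.63 in vehicle and at 8.79 to 9.10 after exposure. Six6, a transcription factor of pituitary and hypothalamus, was at 8.31 in exposed replicate 3 and between 7.67 and 7.78 in the other 5 arrays compared, and reached 7.83 at 0.2 mg/kg. Exposed replicate 3, the highest for Prl, was thus also the highest for Six6. Among markers of tissue next to the frontal lobe, Cdhr1, a cadherin of olfactory bulb output neurons, was at 9.22, 8.62 and 10.35 in vehicle and at 9.37, 10.47 and 10.50 after exposure, so the groups overlapped. The part of neighbouring tissue in these values was not tested.

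The other 5 probes higher by more than 1 each had arrays of widely different level within a group. Washc3, a subunit of the endosomal WASH complex, was at 7.80, 7.69 and 9.98 in vehicle and at 9.69, 10.40 and 9.71 after exposure. Rps9, a protein of the small ribosomal subunit, was at 7.97, 8.07 and 8.00 in vehicle and at 11.29, 8.00 and 7.93 after exposure. Rpl30, a protein of the large subunit, was at 12.94, 12.99 and 9.52 in vehicle and at 12.71, 12.64 and 13.50 after exposure. In each of these genes 1 or more arrays of a group stood at a level 2 or more units from the rest of its group. Sorting the 9 frontal lobe arrays by level, 4 probes showed a gap of at least 2 with at least 2 arrays on each side, those of Rps9, Rpl30 and Mrpl18 and ILMN_1365113, which has no gene name. In 0 of the 4 did the gap divide the exposed from the vehicle arrays. ILMN_1365113 was at 8.26 to 8.38 in vehicle and at 12.25, 8.31 and 8.24 after exposure. ILMN_1349205, which has no gene name either, was the only probe past 1 whose groups did not overlap, at 11.97, 12.04 and 8.89 in vehicle and at 12.50, 12.57 and 12.62 after exposure. Vehicle replicate 3 was the low array, and the interval of the difference included 0.

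Among genes higher after exposure, the smallest unadjusted p-values in the brighter 50% of the probes went with differences of 0.14 to 0.49, all with an adjusted p of 0.910 by limma. Lhfpl6, a tetraspan membrane protein, was at 11.75, 11.70 and 11.78 in vehicle and at 11.91, 11.96 and 11.95 after exposure, a difference of 0.20 with a 95% interval of 0.13 to 0.27. Lzts1, a leucine zipper protein of the postsynaptic density, was at 11.61, 11.45 and 11.64 in vehicle and at 11.97, 12.04 and 11.97 after exposure, a difference of 0.42 with an interval of 0.24 to 0.60. Senp6, a protease that trims SUMO chains, was at 8.77, 8.77 and 8.87 in vehicle and at 9.31, 9.16 and 9.41 after exposure, a difference of 0.49 with an interval of 0.28 to 0.71. In all 3 genes every exposed value was above every vehicle value, as the rule that chose them required. Phc3, a subunit of Polycomb repressive complex 1, differed by 0.27, and Mtf2, a Polycomb-like partner of the other Polycomb complex, by 0.20. The rest of these 10 genes were Ralgds, an exchange factor for Ral GTPases, Zfp667, a zinc finger gene, Pde7a, a cyclic AMP phosphodiesterase, Fbh1, a DNA helicase, and Ppp2r5e, a regulatory subunit of protein phosphatase 2A, with differences between 0.14 and 0.22. Ralgds lay near the floor, with means of 7.80 in vehicle and 7.99 after exposure.

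Larger differences came with wider intervals. Eef2k, the kinase that slows translation elongation, was at 8.68, 8.12 and 8.71 in vehicle and at 9.34, 9.35 and 8.75 after exposure, a difference of 0.65 with an interval of 0.13 to 1.17. Aqp4, the water channel of astrocyte endfeet, was at 8.95, 9.49 and 9.31 in vehicle and at 9.90, 10.08 and 9.50 after exposure, a difference of 0.58 with an interval of 0.18 to 0.98. The nearest vehicle and exposed arrays of both genes lay close together, at 8.71 and 8.75 for Eef2k and at 9.49 and 9.50 for Aqp4. Rhoa, a small GTPase of the actin cytoskeleton, differed by 0.57, Gclc, the catalytic subunit of the first enzyme of glutathione synthesis, by 0.50, Nckap1, a subunit of the WAVE complex, by 0.45, and Napb, an adaptor that loads the vesicle fusion ATPase Nsf, by 0.42. The interval of Gclc included 0.

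Among genes lower after exposure, Mrpl4, a protein of the mitochondrial large ribosomal subunit, had the smallest unadjusted p by limma in the brighter 50% of the probes, 0.00053, with an adjusted p of 0.910. It was at 12.23, 12.17 and 12.22 in vehicle and at 11.89, 11.95 and 12.05 after exposure, a difference of -0.25 with an interval of -0.35 to -0.14. Ccl19, a chemokine that draws cells carrying Ccr7, was at 9.03, 9.16 and 9.06 in vehicle and at 8.64, 8.66 and 8.74 after exposure, a difference of -0.40. At 0.2 mg/kg Ccl19 was at 9.36, 9.60 and 9.23, above the vehicle arrays, so its 3 groups did not overlap and the lower dose held the lowest values. Kcnc1, a fast voltage-gated potassium channel, differed by -0.21, Rgs10, a regulator of G protein signalling, by -0.19, Nlgn3, a postsynaptic adhesion molecule, by -0.12, and Atp5po, a peripheral stalk subunit of the ATP synthase, by -0.16. Adprh, Tbxa2r, Alkbh2 and Bccip differed by -0.21 to -0.13, and Tbxa2r lay near the floor, with means of 7.94 in vehicle and 7.81 after exposure. For Bccip the gene's other probe gave 0.00.

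The larger differences downward were in genes of several kinds. Rpl17, a protein of the large ribosomal subunit, was at 14.18, 14.15 and 14.45 in vehicle and at 13.74, 13.76 and 13.84 after exposure, a difference of -0.48 with an interval of -0.76 to -0.20. Hmgn1, a nucleosome-binding protein, was at 10.26, 10.52 and 11.65 in vehicle and at 9.94, 9.84 and 10.02 after exposure. Its difference of -0.88 had an interval of -2.14 to 0.39, and vehicle replicate 3 was the array that stood high. Lxn, a carboxypeptidase inhibitor, differed by -0.80, Ggact, an enzyme that breaks down cross-linked peptides, by -0.70, Acot13, a mitochondrial thioesterase, by -0.57, Rarres2, the precursor of the chemoattractant chemerin, by -0.52, and Timm10b, a mitochondrial import chaperone, by -0.46. Vtn, which encodes vitronectin and is made by pericytes and by liver, differed by -0.62, and by -0.32 without vehicle replicate 1. The 2 probes without a gene name that had the smallest unadjusted p were ILMN_1374158, at a difference of 0.19, and ILMN_1351159, at 0.11.

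**Figure D3:**
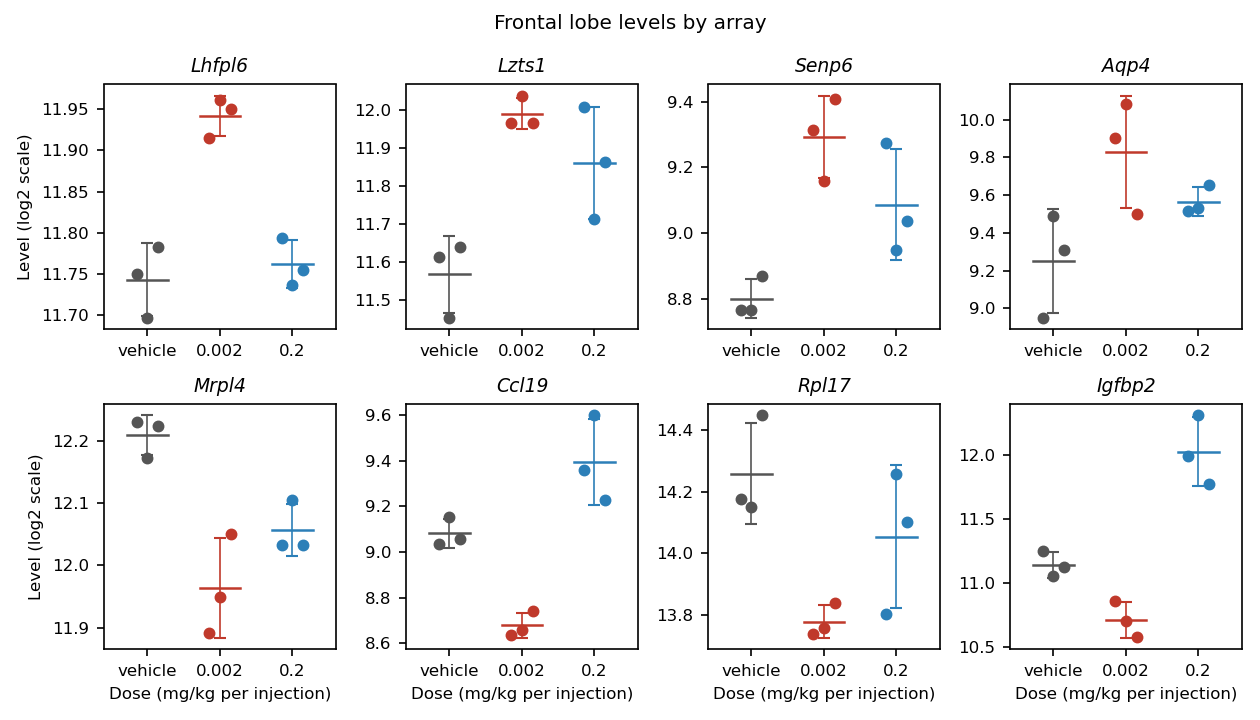
Levels (log2 scale) of 8 genes in the frontal lobe arrays of the vehicle, 0.002 and 0.2 mg/kg groups. Points are arrays, horizontal bars are means and vertical bars are standard deviations of 3 arrays. Lhfpl6, Lzts1, Senp6 and Aqp4 lay higher at 0.002 mg/kg than in vehicle in all 3 arrays and Mrpl4, Ccl19, Rpl17 and Igfbp2 lower, none with an adjusted p under 0.05.

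Gene groups were described by 48 lists that held 1305 measured genes, with 1 probe per gene. Over all 13337 genes 6754 lay above 0 and 6583 below, and the groups did not overlap for 7.34% of the genes upward and for 5.6% downward. An unadjusted p under 0.05 was reached by 3.33% of the genes upward and by 2.2% downward. In 0 of the 48 lists did a member pass the adjusted threshold, and 28 list medians were below 0 and 20 above.

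Genes of oxidative phosphorylation, ribosomes and the proteasome lay below 0 as groups. Of 56 measured subunit and assembly genes of oxidative phosphorylation, the chain of mitochondrial complexes that makes ATP, 51 were lower in the exposed group, with a median of -0.12. The groups did not overlap downward for 10 of the 56, and 7 had an unadjusted p under 0.05 downward by limma, with 0 adjusted. Over all genes these downward shares were 5.6% and 2.2%. Of 59 mitochondrial ribosomal protein genes 51 were lower, with a median of -0.13 and 14 that did not overlap. Of 61 cytosolic ribosomal protein genes 49 were lower, with a median of -0.09 and 20 that did not overlap, and of 37 proteasome genes 27 were lower, with a median of -0.06. Of the proteasome genes 2 did not overlap downward, near the share over all genes, and 2 did not overlap upward. The medians depended on vehicle replicate 3 for much of their size. Without that array they were -0.03, -0.04, -0.04 and 0.00, and the numbers below 0 were 37, 37, 42 and 19. The proteasome median was -0.03 without exposed replicate 3, and the mitochondrial ribosomal median was -0.20 without vehicle replicate 2. Vehicle replicate 3 was the highest of the 6 arrays in all 4 list means, at 0.19, 0.18, 0.11 and 0.14, whereas the other vehicle arrays lay between -0.06 and 0.02. Neighbouring lists did not share the direction. Translation factors, 31 genes, had 15 above 0 and 16 below, and glycolysis genes, 25 in number, had 15 above and 10 below with a median of 0.02.

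Individual members showed the pattern in more detail. Ndufa11, an accessory subunit of complex I, was at 12.95, 12.79 and 13.15 in vehicle and at 12.63, 12.69 and 12.68 after exposure, a difference of -0.30. Atp5po was at 14.84, 14.87 and 14.75 in vehicle and at 14.64, 14.65 and 14.68 after exposure. Cox5a, a subunit of cytochrome c oxidase, differed by -0.18 and Ndufs5, of complex I, by -0.27. Exposed arrays of these genes were close together and below all vehicle arrays. Rpl29 of the large ribosomal subunit was at 14.39, 14.49 and 14.56 in vehicle and at 14.20, 14.30 and 14.23 after exposure. Rps14 of the small subunit was at 14.42, 14.48 and 14.56 in vehicle and at 14.32, 14.35 and 14.27 after exposure. Mrpl32 of the mitochondrial large subunit was at 10.57, 10.50 and 10.76 in vehicle and at 10.30, 10.24 and 10.35 after exposure. Vehicle replicate 3 was the highest array for Ndufa11, Rpl29, Rps14 and Mrpl32 but the lowest vehicle array for Atp5po.

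Promoters of such genes are known to hold sites for ETS family factors and for nuclear respiratory factor 1, and the promoter stretches below are shown because their genes lay lower together. Promoter sequence, the 250 bases before the annotated start, came from RefSeq on the rat build GRCr8, which was used for sequence only. Exact matches on either strand were counted for 4 motifs, CCGGAAG for ETS factors, the palindrome of GCGCA and TGCGC joined without a gap for nuclear respiratory factor 1, AGGTCA for the thyroid receptor site and GCGTG for the xenobiotic response element, none of which holds another. Of 29 named genes in the 4 lists 26 had a promoter in the table, 6 with an ETS match and 3 with a respiratory factor match, and 5 of these promoters are given, chosen after the values were seen. Capitals mark the ETS matches in Rpl29 (chr8:115947393-115947642, plus strand) and Rps14 (chr18:56498010-56498259, plus strand), which read CTTCCGG because they lie on the opposite strand. Capitals mark the respiratory factor matches in Atp5po (chr11:44657484-44657733, minus strand), Ndufa11 (chr9:1637364-1637613, plus strand), where 2 matches overlap, and Mrpl32 (chr17:55260401-55260650, plus strand).
Atp5po: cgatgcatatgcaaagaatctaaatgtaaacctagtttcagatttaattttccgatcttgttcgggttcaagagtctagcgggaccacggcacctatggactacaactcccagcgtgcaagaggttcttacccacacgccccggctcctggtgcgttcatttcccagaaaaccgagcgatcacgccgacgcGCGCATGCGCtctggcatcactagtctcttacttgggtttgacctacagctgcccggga
Ndufa11: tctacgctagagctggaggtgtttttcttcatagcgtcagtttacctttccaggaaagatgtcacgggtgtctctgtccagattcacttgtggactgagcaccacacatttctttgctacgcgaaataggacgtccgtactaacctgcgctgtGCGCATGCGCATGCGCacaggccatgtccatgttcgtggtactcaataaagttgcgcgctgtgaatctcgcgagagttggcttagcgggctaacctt
Mrpl32: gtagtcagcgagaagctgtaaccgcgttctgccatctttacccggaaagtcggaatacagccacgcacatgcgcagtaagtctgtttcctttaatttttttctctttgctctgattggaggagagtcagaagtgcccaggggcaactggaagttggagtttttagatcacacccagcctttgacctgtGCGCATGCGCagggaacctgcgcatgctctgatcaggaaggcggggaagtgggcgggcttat
Rpl29: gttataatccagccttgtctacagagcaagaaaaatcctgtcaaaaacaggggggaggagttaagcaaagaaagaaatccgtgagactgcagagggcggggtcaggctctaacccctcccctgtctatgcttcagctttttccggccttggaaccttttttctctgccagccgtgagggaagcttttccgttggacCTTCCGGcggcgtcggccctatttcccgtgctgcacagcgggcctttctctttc
Rps14: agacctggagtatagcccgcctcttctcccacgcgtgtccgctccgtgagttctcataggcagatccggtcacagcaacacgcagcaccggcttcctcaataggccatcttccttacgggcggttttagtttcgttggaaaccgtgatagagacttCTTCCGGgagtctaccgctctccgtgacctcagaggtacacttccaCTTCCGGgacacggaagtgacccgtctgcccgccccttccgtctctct

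The ETS motif was in 11.1% of the 10976 promoters of genes on the array. It was in 28% of 50 promoters of the oxidative phosphorylation list, 26% of 50 of the cytosolic ribosomal list, 20.8% of 48 of the mitochondrial ribosomal list and 26.5% of 34 of the proteasome list. The highest share, 32% of 25 promoters, was in the translation factor list, which did not lie below 0, and the synaptic endocytosis list, which lay above 0, had 19.0% of 21. The respiratory factor motif was in 1.23% of all array gene promoters and in 8%, 0%, 8.33% and 2.94% of the first 4 lists and 4% of the translation factor list. Its highest share, 11.8% of 17 promoters, was in the GABA and glycine receptor list, which lay above 0. The thyroid half-site was in 11.6% of all array gene promoters and in 8% of 25 promoters of the thyroid list. It was in 24%, 18%, 18.75% and 8.82% of the first 4 lists, and in 40% of 15 promoters of the hypothalamic and pituitary list. The xenobiotic motif was in 36.2% of all and in 46%, 44%, 45.8% and 50% of the first 4 lists. The xenobiotic list had it in 33.3% of 42 promoters and the heat shock list in 65.5% of 29. These shares describe the sequence of the promoters and say nothing of which factors bound there.

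Vascular and meningeal genes also lay below 0 as groups. Of 25 genes of meninges and fibroblasts 23 were lower, with a median of -0.18 and 5 that did not overlap downward. Over all genes 5.6% did not overlap downward. Igfbp2, a binding protein of insulin-like growth factors, was at 11.25, 11.05 and 11.13 in vehicle and at 10.86, 10.70 and 10.58 after exposure. Mgp, an inhibitor of calcification, differed by -0.44, Crabp2, a carrier of retinoic acid, by -0.32, and Col1a2, a fibrillar collagen chain, by -0.23. The collagen had 12.92, 12.58 and 11.36 in vehicle and 11.95, 12.00 and 12.21 after exposure, so the groups overlapped and vehicle replicate 3 was low. Of 23 endothelial and mural genes 21 were lower, with a median of -0.07 and 3 that did not overlap, among them Flt1, a receptor of vascular growth factors that lay close to the floor, at -0.10. Vwf, the endothelial clotting factor, was at 9.58, 9.45 and 8.51 in vehicle and at 8.71, 8.86 and 9.15 after exposure. In bulk tissue fewer cells of a type and less RNA per cell cannot be told apart.

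The vascular and meningeal medians depended on single vehicle arrays. The list means were 0.21, 0.16 and -0.13 in vehicle against -0.03, -0.13 and -0.08 after exposure for meninges, and 0.13, 0.20 and -0.16 against -0.05, -0.09 and -0.03 for vessels. Without vehicle replicate 1 the meningeal median was -0.08 and without vehicle replicate 2 it was -0.11. The vascular median was -0.08 without vehicle replicate 1, -0.01 without vehicle replicate 2 and -0.22 without vehicle replicate 3. Red blood cell genes, 12 measured, had a median of -0.04, with Hbb, the beta globin, at 15.46, 15.25 and 14.82 in vehicle and at 14.61, 15.00 and 15.10 after exposure. The part of blood and membranes left on the tissue in these differences was not tested.

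**Figure D4:**
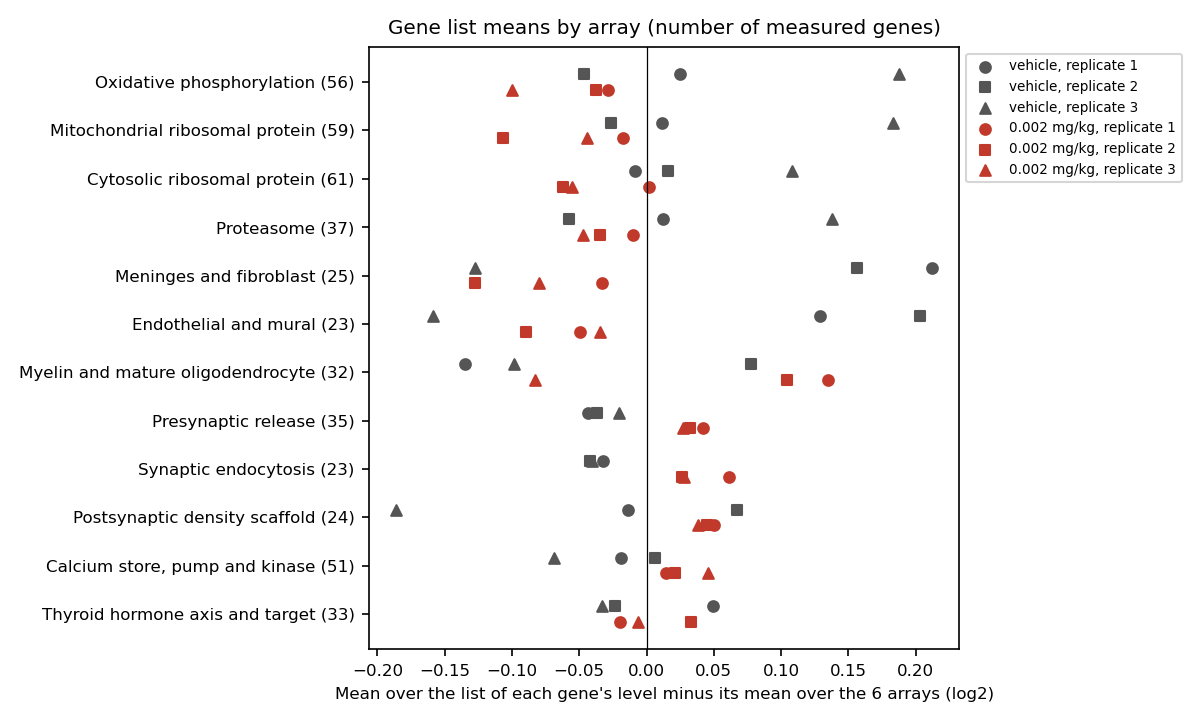
Means of 12 gene lists in each of the 6 arrays, as the mean over the list of each gene's level minus its mean over these arrays (log2). Symbols stand for replicates, grey for vehicle and red for 0.002 mg/kg, with the number of measured genes in parentheses. Vehicle replicate 3 is the highest array in the oxidative phosphorylation, ribosomal and proteasome lists, and the presynaptic and endocytosis lists have all 3 exposed arrays above the vehicle arrays.

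Genes of the presynaptic terminal and of calcium handling lay slightly above 0, with groups that were close to each other. Of 35 presynaptic release genes 24 were higher, with a median of 0.04, which was 0.02 without exposed replicate 2. The groups did not overlap upward for 6 of them, and 5 had an unadjusted p under 0.05 upward by limma, with 0 adjusted. Over all genes these upward shares were 7.34% and 3.33%. Nsf, the ATPase that takes apart used fusion complexes, was at 12.75, 12.61 and 12.47 in vehicle and at 12.82 or above after exposure. Syn1, which tethers synaptic vesicles, was at 8.88, 8.85 and 8.85 in vehicle and at 9.11, 9.04 and 9.01 after exposure. Rims2, an active zone scaffold, differed by 0.22 on its brightest probe and by 0.07 and 0.02 on its other probes. Of 23 genes of synaptic vesicle endocytosis, among which the telomere gene Stn1 was listed in error, 16 were higher, with a median of 0.07, which was 0.04 without vehicle replicate 3. Dnm2, a dynamin that cuts vesicles from the membrane, was at 9.14, 9.20 and 8.97 in vehicle and at 9.37, 9.41 and 9.33 after exposure. Ap2b1, of the clathrin adaptor AP2, differed by 0.28 and Pacsin1, which bends membranes at the same sites, by -0.27.

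Of 51 genes of calcium stores, pumps and kinases 33 were higher, with a median of 0.05, and 7 did not overlap upward and 0 downward. Without vehicle replicate 3 the median was 0.01, with 27 above 0 and 24 below. Atp2b2, a calcium pump of the plasma membrane, was at 9.74, 9.69 and 9.63 in vehicle and at 9.78, 10.06 and 10.14 after exposure, a difference of 0.30. Camk1g, a calmodulin-dependent kinase, differed by 0.28, and Ncs1, a neuronal calcium sensor, by 0.16. Ryr2, the ryanodine receptor of heart and brain, was at 8.10, 8.15 and 8.24 in vehicle and at 8.23, 8.26 and 8.36 after exposure, a difference of 0.12 with an interval of -0.02 to 0.25. Its other probes gave -0.03, 0.03 and 0.09, so the probes of the gene did not share a direction. Ryr1 and Ryr3 were not analysed here. Array means of the exposed group lay above all vehicle means in 3 of the 48 lists, those of presynaptic release, synaptic endocytosis and calcium handling, and below them in 4, those of chemokines, the cholinergic system, insulin-like growth factors and ependyma. In these 4 lists the medians were between -0.03 and 0. Among single genes 7.34% did not overlap upward and 5.6% downward, and the counts of lists were not tested.

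Receptor, scaffold and channel genes had medians between -0.03 and 0.06. Genes of the postsynaptic density scaffold, 24 in number, had a median of 0.06, or 0.02 without vehicle replicate 3 and 0.10 without exposed replicate 1, and the 18 GABA and glycine receptor genes 0.04, with Glrb, the structural subunit of the glycine receptor, at 0.26 and Gabrd, an extrasynaptic GABA receptor subunit, at -0.09. The 19 ionotropic glutamate receptor genes had a median of -0.01, the 58 potassium channel genes 0.01 and the 21 sodium and calcium channel genes 0.00. Kcng1, a modifier subunit of potassium channels, was at 9.91, 9.70 and 9.64 in vehicle and at 10.27, 9.99 and 10.14 after exposure, a difference of 0.38. Chrna4, a nicotinic acetylcholine receptor subunit, differed by -0.03 with an interval of -0.28 to 0.21. Among immediate early genes, which neuronal activity induces, Fos differed by 0.05 and Egr4 by -0.26. Arc ranged from 9.61 to 11.41 in vehicle and from 10.28 to 11.31 after exposure.

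Thyroid hormone genes gave no common direction. Of 33 measured members of the axis and its targets 18 were above 0 and 15 below, with a median of 0.00, and 4 did not overlap upward and 0 downward. Over all genes 7.34% did not overlap upward and 5.6% downward. Thra was at 12.79, 13.12 and 12.57 in vehicle and at 12.89, 12.97 and 13.03 after exposure. Thrb was at 10.93, 10.96 and 10.75 in vehicle and at 11.07, 11.17 and 11.03 after exposure, a difference of 0.21 with an interval of -0.13 to 0.56. The exposed values of Thrb were all above the vehicle values, while its interval, from a fit that takes the spread of all 9 frontal lobe arrays, included 0. Klf9, a direct target of the hormone in brain, differed by 0.12 with an interval of -0.01 to 0.25, and Hr, the hairless corepressor, by 0.06 with an interval of -0.08 to 0.19. Rxrb, a partner of the thyroid receptors, was at 10.89, 10.99 and 10.91 in vehicle and at 11.27, 11.29 and 11.28 after exposure, a difference of 0.35, and its other probe gave 0.15. Thrsp, a lipogenic target, was at 11.13, 10.97 and 9.99 in vehicle and at 10.22, 10.50 and 10.41 after exposure. Dio2 and Dio3, the enzymes that activate and inactivate the hormone, were below 8 in every array and differed by 0.01 and -0.01. Ttr, the thyroxine carrier made by liver and choroid plexus, was at 10.71, 8.17 and 7.92 in vehicle and at 7.81, 8.31 and 8.11 after exposure, and its difference of -0.85 became 0.03 without vehicle replicate 1.

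Genes of xenobiotic metabolism, oxidative defence and protein folding were examined as further known targets. Of 52 xenobiotic and conjugation genes 34 were lower, with a median of -0.05, which was -0.01 without vehicle replicate 1. Cyp2e1, a liver monooxygenase, was at 10.67 in vehicle replicate 1 and at 7.75 to 8.24 in the other 5 arrays. Cyp1a1, the target of the aryl hydrocarbon receptor, was between 7.58 and 7.61 and differed by 0.00 with an interval of -0.05 to 0.06. Nr1i3, the constitutive androstane receptor, was at 7.84, 7.75 and 7.80 in vehicle and at 8.01, 7.87 and 7.87 after exposure, near the floor. Nqo1, a quinone reductase controlled by Nrf2, differed by -0.05 with an interval of -0.36 to 0.25. The 33 Nrf2 and oxidative stress genes had a median of -0.02, with Sod2, the mitochondrial superoxide dismutase, at 0.28 and Gpx1, a glutathione peroxidase, at -0.33. Of 35 heat shock and endoplasmic reticulum stress genes 21 were higher, with a median of 0.01, and 8 did not overlap upward and 0 downward. The shares over all genes were 7.34% upward and 5.6% downward. Hspa5, the main chaperone of the endoplasmic reticulum, was at 13.13, 13.05 and 13.20 in vehicle and at 13.31, 13.35 and 13.21 after exposure, and Canx, a lectin chaperone of the same compartment, differed by 0.39. Hspd1, the mitochondrial chaperonin, differed by 0.10 and its partner Hspe1 by -0.19.

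Glial lists had small medians, and some of their members differed by more. Of 32 myelin and mature oligodendrocyte genes 22 were higher, with a median of 0.08. Mbp, which encodes myelin basic protein, was at 10.35, 11.00 and 11.04 in vehicle and at 11.55, 11.62 and 10.82 after exposure, a difference of 0.53 with an interval of -0.10 to 1.17. Ermn, a cytoskeletal protein of myelinating cells, differed by 0.35 and Tspan2, a tetraspanin of oligodendrocytes, by 0.34, and neither overlapped. The myelin list mean was -0.08 in exposed replicate 3 and 0.10 and 0.13 in the other exposed arrays, and with 1 array left out the median ran from 0.04, without exposed replicate 2, to 0.14, without vehicle replicate 2. Of 23 astrocyte genes 14 were below 0 and 9 above. Their median of -0.03 ran from -0.11 without vehicle replicate 3 to 0.01 without vehicle replicate 2. Members lay between -0.37 and 0.58, the value of Aqp4. Gfap, the intermediate filament of astrocytes, was at 0.18 with an interval of -0.62 to 0.99. The astrocyte markers Slc1a3 and Aldoc were at 0.26 and -0.08. Of 24 microglia genes 15 were below 0 and 9 above, with a median of -0.05, or -0.01 without vehicle replicate 3. The microglia marker Aif1 was at -0.16 with an interval of -0.51 to 0.19. The markers P2ry12 and Cx3cr1, the latter near the floor, were at 0.06 and 0.05. Igf2, a growth factor of the meninges and choroid plexus, was at 13.17, 12.78 and 12.63 in vehicle and at 12.72, 12.88 and 12.44 after exposure.

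The same dose in total brain, with its own controls and at postnatal day 10 by the sample descriptions, gave 0 of 22523 probes past the adjusted threshold as well, and 1468 at an unadjusted p under 0.05 (6.52%) by limma. The test of the difference between the responses of frontal lobe and total brain, an interaction over all 18 arrays, called 0 probes, with 1108 at an unadjusted p under 0.05 (4.92%) and a smallest adjusted p of 0.938. Tissue, age and number of injections differ together between these groups. Gins3, a subunit of the replication helicase, differed by 0.10 in frontal lobe and by -0.10 in total brain. Ybx3, a cold shock domain protein, differed by -0.43 and 0.48, and Vamp2, the vesicle fusion protein of synapses, by -0.15 and 0.26. Pals1, a cell polarity scaffold, differed by -0.30 and 0.36, and Acsl5, a fatty acid activating enzyme, by -0.12 and 0.19. These were among the genes with the smallest interaction p-values, and each had an adjusted p of 0.938 by limma. The levels of Gins3 lay near the floor.

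Many small differences nevertheless had the same sign in both tissues, which share no arrays. Of the 974 brighter probes whose exposed frontal lobe values all lay above vehicle, 63.9% were above 0 in total brain, where 48.2% of all brighter probes were. Of the 739 that lay below, 70.8% were below 0 in total brain, where 51.8% of all brighter probes were. Among the 10 nearest genes in each direction 8 and 8 kept their sign. The correlation of the differences across all probes was 0.22, a description over probes that share arrays within each tissue, and the shares of equal sign were not tested. In total brain the medians of the oxidative phosphorylation, mitochondrial ribosomal, cytosolic ribosomal and proteasome lists were -0.12, -0.12, -0.16 and -0.07, whereas the meningeal and vascular lists were at -0.03 and -0.01 and the myelin list at 0.10.

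At 0.2 mg/kg in frontal lobe, a comparison that shares the vehicle arrays, the medians against vehicle were 0.03 for oxidative phosphorylation, 0.09 for mitochondrial ribosomal, 0.11 for cytosolic ribosomal, 0.11 for proteasome and 0.20 for meningeal genes, and -0.07 for vascular genes. For presynaptic release and postsynaptic scaffold genes they were -0.06 and -0.18, against 0.04 and 0.06 at 0.002 mg/kg. Most of these lists lay on opposite sides of 0 at the doses. Set directly against each other, the doses differed at 646 of 22523 probes by limma at an adjusted p under 0.05 (2.87%), 321 higher at 0.2 mg/kg (1.43%) and 325 lower (1.44%). The count of 646 was 28, 37 or 65 when 1 of the 0.002 mg/kg arrays was left out and 216 to 823 when 1 of the 0.2 mg/kg arrays was. Among genes tied to the question, Igfbp2, which was also named for its values, was at 11.99, 12.31 and 11.78 at 0.2 mg/kg and Igf2 at 13.69, 13.81 and 13.36. Ryr2 was at 7.87, 7.82 and 8.00 and Thrb at 10.60, 10.00 and 10.56. For Igfbp2 and Igf2 the 0.002 mg/kg arrays were all lower than the 0.2 mg/kg arrays, and for Ryr2 and Thrb they were all higher. In each of these genes the vehicle arrays also all lay on that side of the 0.2 mg/kg arrays, so the contrast was not particular to 0.002 mg/kg.

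**Figure D5:**
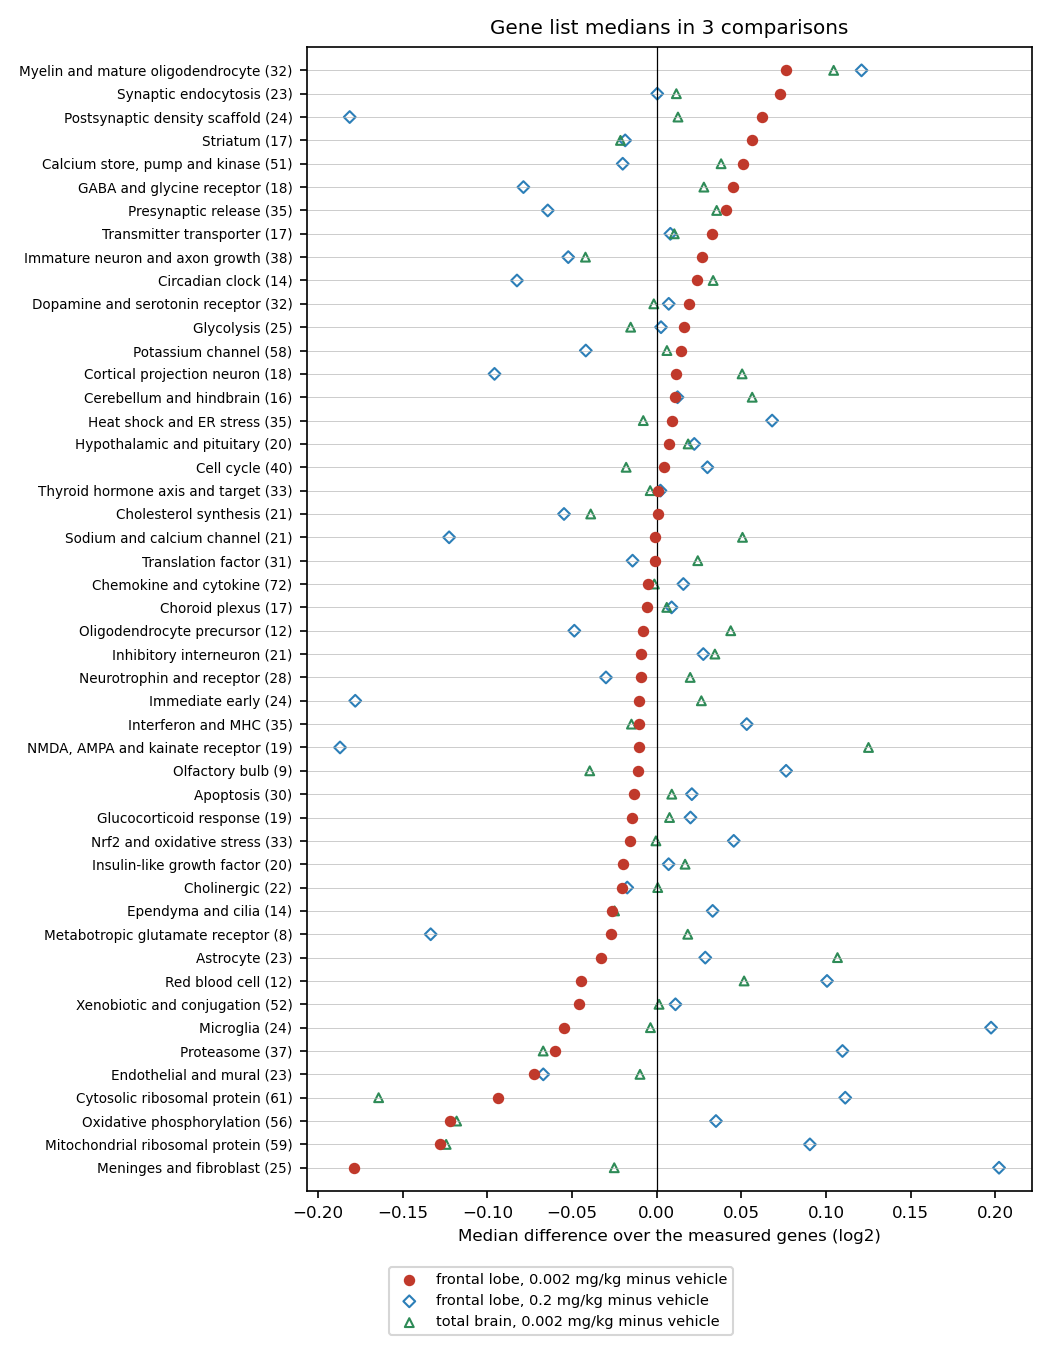
Median log2 difference over the measured genes of each of 48 lists in 3 comparisons, frontal lobe at 0.002 mg/kg (red), frontal lobe at 0.2 mg/kg (blue diamonds) and total brain at 0.002 mg/kg (green triangles), each against its vehicle group. The frontal lobe comparisons share their vehicle arrays. In the 0.002 mg/kg frontal lobe the medians run from -0.18 in the meningeal list to 0.08 in the myelin list.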

How the data were processed

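Labelled cRNA of 1 pup per array was hybridised to Illumina rat arrays, per the labels' protocols. The authors deposited processed log2-like values, and the submitters' processing notes name lumi. Its version and the background correction, transformation and normalization it applied are not stated in the labels. Detection p-values and chip numbers were not used. The number of arrays, 3 per group, limits the precision.

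No filter was added. The platform annotation gave 13793 of the 22523 probes 1 gene symbol, 0 several and 8730 none, and 13752 matched RefSeq by Entrez identifier. limma 3.58.1 (R 4.3.3, lmFit and eBayes) was run on the 9 frontal lobe arrays together, and on 18 for the interaction, with Benjamini-Hochberg adjustment over all probes at 0.05. Intervals are 95% intervals of that fit. An exact permutation test of 3 against 3 arrays cannot go below 0.1 and was not used. Lists and figures were made in Python 3.11.15. The fit was tested on simulated data.

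Each gene stands by its brightest probe. Members, lists and rules were chosen with earlier results of these data known. The genes named were drawn from those picked by the following rules, and not every picked gene is named. Among genes whose groups did not overlap, the rules took the 10 smallest unadjusted p in the brighter 50% and the 10 largest differences in each direction. They also took the 4 members of each list with the smallest unadjusted p, and up to 6 of the largest in lists with 80% or more on 1 side of 0. A set tied to the question, the 5 smallest interaction p in each direction, and 2 probes without a gene name were added. Tissue markers came from a list, and others, such as Gpx1, Hspe1, Pacsin1, Aif1, Pomc and Cyp2e1, were named after their values were seen. Alternatives changed the normalization, the probes kept, the prior, the weights, the arrays in the fit and the replicate block.

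Same-numbered vehicle and exposed arrays deviated from their group means with correlations of -0.25 to -0.20, below all other pairs of these groups, at -0.04 to 0.24. Because the same-numbered correlations were negative, the numbers were not taken to pair the samples. Same-numbered arrays of the 0.002 and 0.2 mg/kg groups gave 0.04 to 0.11, and the other pairs of these groups -0.10 to 0.04. Whether arrays of the same number shared a batch was not tested.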

Additional observations from a re-analysis of the deposited data

How the results depend on the processing

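The count of 0 probes for 0.002 mg/kg against vehicle in frontal lobe was 0 under every alternative run, namely median centring, quantile normalization, only the brighter 50% of probes, the trend and robust prior, array weights, 6 or 18 arrays in the fit, a threshold of 0.1, the replicate block and each of the 6 arrays left out. By limma, 710 to 1806 of 22523 probes had an unadjusted p under 0.05, and 678 of 11261 in the fit of the brighter 50%. With the replicate number as a block the count past the adjusted threshold was 0, with 991 at an unadjusted p under 0.05 by limma against 1151. The numbers were not taken to pair these samples. In total brain the count of 0 became 1 in the brighter 50% of the probes and ranged from 0 to 1 with an array left out. The interaction count of 0 ranged from 0 to 1 with an array left out. It was 1 without vehicle replicate 3 of the frontal lobe or 0.002 mg/kg replicate 2 of the total brain, and the latter array also gave the 1 in total brain. The count of 646 between the doses was 1182 in the brighter 50% of the probes, 65 with the replicate block and 28 to 823 with an array left out; the cause was not tested. The 256 named probes kept their side of the threshold under every alternative run for them, which follows from the counts of 0 above. Of these probes up to 7 changed sign with an array left out. Of 48 list medians, 2 to 8 moved by more than the spread between arrays with an array left out and 5 in the brighter 50% of the probes, and 2 to 13 changed sign with an array left out, 13 of them without vehicle replicate 2. Counts without vehicle replicate 1 of probes past 0.5 or 1, and the pituitary mean without Prl, were chosen after seeing the data. Signal near the floor limits 58.5% of the probes.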
